A study of Sus scrofa with 18 samples.

Results

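Immediate early transcription factors are the 10 genes FOS, FOSB, FOSL1, JUN, JUNB, ATF3, EGR1, EGR2, IER2 and MYC, taken by symbol from the gene name column of the authors' tables. All 10 had a row, out of 15240 genes, and each was followed through 18 libraries of pig (Sus scrofa) cells. The libraries are total RNA from a bought culture described by its labels as primary kidney endothelial cells, frozen at passage 5 and grown in a medium that held serum, epidermal growth factor, vascular endothelial growth factor and hydrocortisone. By their labels 5 libraries were Cell-cell interaction, 5 were St8i6a plasmid (the design text calls it ST8Sia6, a sialyltransferase), 5 were GFP control (a plasmid for a fluorescent protein), 1 was a negative called Kec plus all cells and 2 were Wild type. The transfected cells had received their plasmid by Lipofectamine LTX and were used 24 hours later. The design text describes co-culture with blood mononuclear cells of 4 individuals and 4 transfection experiments. The labels state neither which plasmid the Cell-cell interaction libraries carried nor which libraries shared an experiment, so p-values measure only the spread between these libraries, which may be technical.

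Immediate early genes are transcribed within minutes of a growth factor, cytokine, mechanical or stress signal, without need of new protein. Kinases of the ERK, JNK and p38 families activate factors already bound at their promoters, chiefly serum response factor (SRF) with its ETS partners and CREB. FOS and JUN family proteins pair through leucine zippers to form AP-1, EGR proteins bind GC-rich DNA by zinc fingers, and ATF3 and MYC join these waves. The messages are short-lived, so a level at harvest does not tell a steady state from a pulse. These messages are also known to move when cells are chilled, detached or otherwise handled.

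Depth and cell identity bear on every value below. The libraries held 14867035 to 33301008 counts in genes. The share of mitochondrially encoded genes was 13.8% to 25.4% in 6 of them, St8i6a plasmid 4 and 5 and Cell-cell interaction 1 to 4, and 1.22% to 4.32% in the other 12. The counts of ST8SIA6, the gene the plasmid was to supply, were 59, 0, 3, 0 and 61 in St8i6a plasmid 1 to 5. They were 0, 27, 0, 5 and 1 in GFP control 1 to 5. In Cell-cell interaction 1 to 5 they were 0, 439, 0, 24 and 2, and the 439 counts (28.2 CPM) were the highest of the series. These counts did not separate the labels, so each direction below is one between labels. Of 11 endothelial markers, 7 had a row and 5 of these averaged under 1 CPM (the usual depth-scaled count, here taken relative to the TMM-adjusted size of the library). CDH5, VWF, KDR and TEK had 0 rows between them. The summed level of 8 epithelial markers with a row was 1044 to 1663 CPM in Cell-cell interaction, 1415 to 2322 CPM in St8i6a plasmid and 1966 to 2912 CPM in GFP control. Of 18 leukocyte markers, 9 had a row and 4 of these averaged under 1 CPM. The 9 summed to 31.2 to 64.9 CPM in Cell-cell interaction, 28.2 to 60.1 CPM in St8i6a plasmid and 30.1 to 95.0 CPM in GFP control. The highest sums in GFP control were those of GFP control 1 (58.5 CPM) and 2 (95.0 CPM). In Wild type the sum was 22.8 to 45.9 CPM, and in Kec plus all cells it was 21.6 CPM, the lowest of the series. Summed over 5 fibroblast and mural markers with a row, mostly the collagen genes COL1A1 and COL1A2, the level was 6749 to 10790.4 CPM in Cell-cell interaction 1 to 4 and 37703 CPM in Cell-cell interaction 5, 6947 to 15918 CPM in St8i6a plasmid, 9249 to 27636 CPM in GFP control, 22999.7 CPM in Kec plus all cells and 23125 to 35616 CPM in Wild type. In such bulk libraries, a change in the share of a cell type and a change of RNA per cell cannot be told apart.

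MYC was the most abundant of the 10 genes and IER2 was barely detected. Divided by exon length, so that genes can be compared, the median level over the 18 libraries was 106 CPM per kilobase for MYC, 68.1 for JUNB, 59.0 for JUN, 29.04 for EGR1, 26.2 for FOSL1, 11.1 for ATF3, 5.40 for FOS, 1.60 for EGR2, 1.54 for FOSB and 0.0954 for IER2. Within single libraries the order held between MYC and JUNB in 15 of 18, between JUNB and JUN in 13 and between JUN and EGR1 in all 18. EGR1 was above FOSL1 in 9 libraries and EGR2 above FOSB in 11, so these neighbours cannot be ordered, whereas FOSL1 was above ATF3, and ATF3 above FOS, in all 18.

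The genes also differed in how much they varied. JUN ranged 1.46-fold between its lowest and highest library, and its standard deviation of log2(CPM + 0.5) over the libraries, 0.16, was above that of 4.29% of the 12769 genes averaging at least 1 CPM. FOSB ranged 11.1-fold, with a standard deviation of 0.95, above that of 94.0% of those genes. EGR2 (0.71) and FOSL1 (0.71) came next, MYC (0.39), FOS (0.40), ATF3 (0.47) and EGR1 (0.47) lay between, and JUNB was at 0.28.

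**Figure D1:**
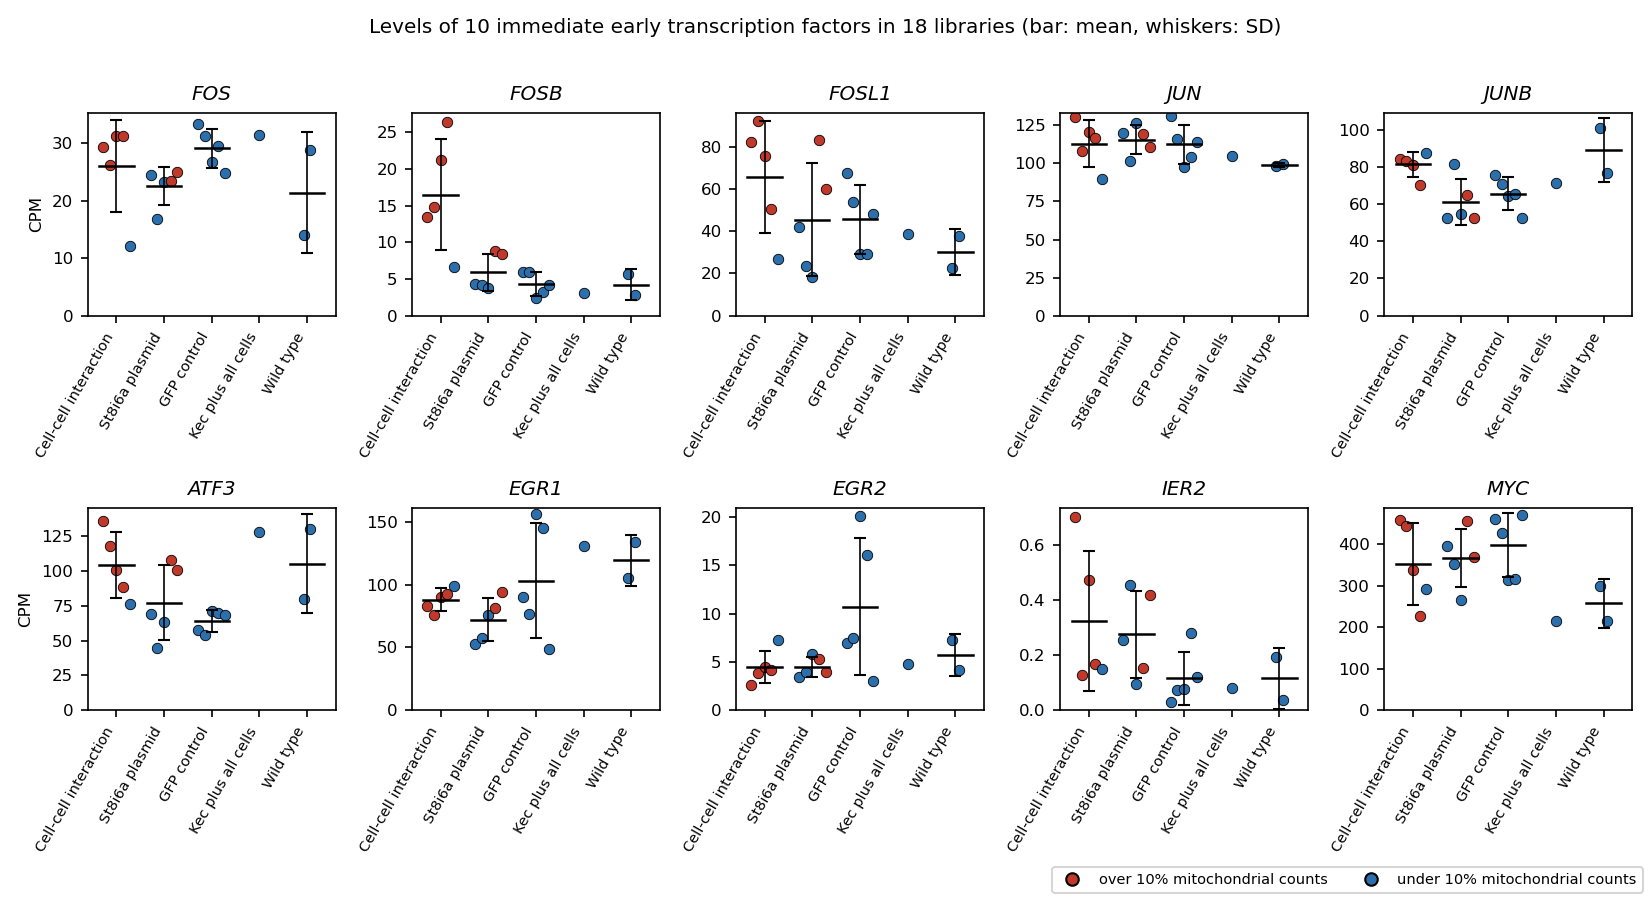
CPM of each of the 10 genes (vertical axes, linear, from 0) in the 18 libraries, grouped by label from Cell-cell interaction to Wild type. Each point is a library, bars are means and whiskers SD, and red points are the 6 libraries over 10% mitochondrial; FOSB reached 26.4 CPM in Cell-cell interaction 4, and EGR2 20.1 CPM in GFP control 3.

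By the labels, Cell-cell interaction against GFP control sets cells in contact with blood cells against plasmid cells, and here FOSB, ATF3 and JUNB rose. The labels do not state the plasmid of the Cell-cell interaction libraries, so contact and plasmid cannot be told apart in it. Cell-cell interaction 1 to 4 were also over 10% mitochondrial, and the GFP control libraries were all under it. FOSB rose 3.87-fold, ATF3 1.66-fold and JUNB 1.26-fold, while FOS, FOSL1, JUN, EGR1, EGR2 and MYC did not pass the test. IER2 was too low to be tested. Thus 3 of 9 tested members rose and 0 fell, in edgeR's quasi-likelihood test at a false discovery rate of 0.05, where 39.5% of all 13951 tested genes passed, 20.8% upward and 18.7% downward. The median log2 fold change of the 9 members was 0.04, beside -0.02 over all tested genes.

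FOSB (ENSSSCG00000031616.2) encodes an AP-1 subunit that binds DNA as a dimer, mainly with a JUN protein. It lies on chromosome 6 from 51837719 to 51844531 (build susScr11, plus strand). Cell-cell interaction 1 to 5 had 13.4, 14.8, 21.3, 26.4 and 6.64 CPM of FOSB, St8i6a plasmid 1 to 5 had 4.34, 4.18, 3.78, 8.78 and 8.37 CPM, and GFP control 1 to 5 had 6.02, 5.97, 2.39, 3.16 and 4.16 CPM. Every Cell-cell interaction library was above every GFP control library, and within the St8i6a plasmid label libraries 4 and 5 were above the other 3. The 6 libraries over 10% mitochondrial were the 6 highest in FOSB, at 8.37 to 26.4 CPM. The log2 fold change against GFP control was 1.95 ± 0.37 (SE, n = 5 and 5, edgeR adjusted p = 0.00285). With those 6 libraries left out, Cell-cell interaction 5 alone remained for its label, the log2 fold change was 0.56 (edgeR adjusted p = 0.649), and the part of the mitochondrial share in the result was not tested.

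FOS (ENSSSCG00000002383.4, chromosome 7, 98449349 to 98455554) is the archetype of the family. It had 29.5, 26.3, 31.2, 31.3 and 12.2 CPM in Cell-cell interaction 1 to 5, 24.6, 16.9, 23.2, 23.4 and 25.1 CPM in St8i6a plasmid 1 to 5 and 33.3, 31.3, 26.8, 29.5 and 24.8 CPM in GFP control 1 to 5. Wild type 1 (14.0 CPM) and Cell-cell interaction 5 (12.2 CPM) were the lowest of all 18, and St8i6a plasmid 2 (16.9 CPM) came next. The log2 fold change against GFP control was -0.13 ± 0.23 (SE, n = 5 and 5, edgeR adjusted p = 0.665), and without Cell-cell interaction 5 it was 0.05. With the 6 libraries over 10% mitochondrial left out, Cell-cell interaction 5 alone stood for its label and the value was -1.30 (edgeR adjusted p = 0.0740). Fibroblast and mural markers summed to 37703 CPM in Cell-cell interaction 5 and 35616 CPM in Wild type 1, the highest sums of the series, and their part in the FOS values was not tested.

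FOSL1 (ENSSSCG00000012967.4, chromosome 2, 6430153 to 6436173) encodes FRA1, an AP-1 subunit long-lived enough to persist under sustained ERK signalling. Its levels were 82.4, 92.2, 75.4, 50.7 and 26.8 CPM in Cell-cell interaction 1 to 5, 41.8, 23.7, 18.1, 83.2 and 59.8 CPM in St8i6a plasmid 1 to 5 and 67.4, 53.6, 29.4, 29.2 and 48.1 CPM in GFP control 1 to 5. Labels overlapped throughout, and St8i6a plasmid 4 stood among the high Cell-cell interaction libraries. The log2 fold change of Cell-cell interaction over GFP control, 0.56 ± 0.33 (SE, n = 5 and 5), did not pass (edgeR adjusted p = 0.206). Without Cell-cell interaction 5 it was 0.75 and passed (edgeR adjusted p = 0.0364), and with the 6 libraries over 10% mitochondrial left out it was -0.82 (edgeR adjusted p = 0.488).

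The JUN family supplies the main partners of FOS proteins in AP-1 dimers. JUN (ENSSSCG00000031912.2, chromosome 6, 153685682 to 153687656) had 130.4, 108, 120.4, 117 and 89.9 CPM in Cell-cell interaction 1 to 5, 120.1, 101, 127, 119.6 and 111 CPM in St8i6a plasmid 1 to 5 and 131, 116, 97.7, 104 and 114 CPM in GFP control 1 to 5. It was the steadiest member, with a log2 fold change of 0.04 ± 0.13 against GFP control (SE, n = 5 and 5, edgeR adjusted p = 0.837) whose interval of 2 SE to either side ran from -0.22 to 0.29. An unnamed gene on the opposite strand, at 0.322 to 1.84 CPM, overlaps the JUN span and had a Pearson coefficient of 0.85 with JUN over the 18 libraries. The sources used here do not say whether counting used strand.

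JUNB (ENSSSCG00000013735.4, chromosome 2, 66214594 to 66215637) encodes a JUN protein that is a weaker activator and can restrain JUN. It had 84.3, 83.2, 81.1, 70.6 and 87.7 CPM in Cell-cell interaction 1 to 5, 52.5, 81.4, 54.8, 64.9 and 52.4 CPM in St8i6a plasmid 1 to 5 and 75.8, 70.8, 64.3, 65.4 and 52.3 CPM in GFP control 1 to 5. Cell-cell interaction 4 lay within GFP control and the other 4 libraries of its label lay above it. The rise had a log2 fold change of 0.34 ± 0.12 (SE, n = 5 and 5, edgeR adjusted p = 0.0374). It was the least secure of the passing members, since it did not pass in 7 of 10 fits that left out a library, nor in the fit of all groups together (edgeR adjusted p = 0.0806). The single JUNB exon overlaps HOOK2, a gene on the opposite strand at 4.01 to 26.2 CPM, so reads of this pair cannot be told apart unless counting used strand.

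ATF3 (ENSSSCG00000015595.5, chromosome 9, 130770428 to 130787462) encodes a stress-induced bZIP factor that as a homodimer represses transcription. It had 136, 118, 101, 88.4 and 76.2 CPM in Cell-cell interaction 1 to 5, 69.1, 44.5, 63.6, 108 and 101 CPM in St8i6a plasmid 1 to 5 and 57.3, 53.6, 71.3, 69.6 and 68.2 CPM in GFP control 1 to 5. Every Cell-cell interaction library was above every GFP control library, and St8i6a plasmid 4 and 5, over 10% mitochondrial, were above the other 3 of their label. The log2 fold change against GFP control was 0.73 ± 0.16 (SE, n = 5 and 5, edgeR adjusted p = 0.00604). Without the 6 libraries over 10% mitochondrial it was 0.21 (edgeR adjusted p = 0.654). Outside those libraries, Kec plus all cells had 128 CPM and Wild type 1 and 2 had 80.1 and 130.3 CPM. Mitochondrial counts were 4.32% in Kec plus all cells and in Wild type 2, the highest of the 12 libraries under 10%, and 2.29% in Wild type 1. The part of the mitochondrial share in the ATF3 values was not tested. FOSB and ATF3 were thus the members whose libraries did not overlap between Cell-cell interaction and GFP control, 2 of 9, both upward, where the groups did not overlap for 24.6% of all tested genes and did so upward for 11.7%.

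EGR1 (ENSSSCG00000014336.5, chromosome 2, 140441421 to 140445296), a zinc finger factor induced through SRF, had 83.1, 75.5, 90.4, 92.3 and 99.3 CPM in Cell-cell interaction 1 to 5, 52.6, 57.2, 76.0, 81.1 and 93.8 CPM in St8i6a plasmid 1 to 5 and 89.8, 76.3, 156, 145 and 48.8 CPM in GFP control 1 to 5. The GFP control label held both the highest libraries of all 18 (3 and 4) and the lowest (5). Its SD was accordingly 45.8 CPM, against 9.10 CPM in Cell-cell interaction, and the log2 fold change was -0.20 ± 0.27 (SE, n = 5 and 5, edgeR adjusted p = 0.581).

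EGR2 (ENSSSCG00000010224.5, chromosome 14, 66284577 to 66291306), its relative, showed the same libraries at the extremes of the GFP control label. It had 2.59, 3.85, 4.51, 4.16 and 7.23 CPM in Cell-cell interaction 1 to 5, 3.39, 3.94, 5.78, 5.26 and 3.95 CPM in St8i6a plasmid 1 to 5 and 6.92, 7.52, 20.1, 16.1 and 3.07 CPM in GFP control 1 to 5. Libraries 3 and 4 of GFP control stood above every other library of the series, the next being GFP control 2. The log2 fold change against GFP control was -1.23 ± 0.46 (SE, n = 5 and 5) and missed the threshold (edgeR adjusted p = 0.0523). It passed without GFP control 5 (-1.49, edgeR adjusted p = 0.0101) and by DESeq2 (-1.22, adjusted p = 0.0193). NR4A1, an orphan nuclear receptor of the same early wave, was likewise at 71.1 and 69.9 CPM in GFP control 3 and 4, against 6.04 to 19.7 CPM in the other 16 libraries. Fibroblast and mural markers summed to 27636 and 26985 CPM in GFP control 3 and 4, against 9249 to 15121 CPM in GFP control 1, 2 and 5, and their part in the EGR values was not tested.

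IER2 (ENSSSCG00000013753.3, chromosome 2, 65909646 to 65911423), a small nuclear protein of the first wave, had 13, 2, 8, 3 and 4 counts in Cell-cell interaction 1 to 5, 7, 13, 3, 3 and 9 counts in St8i6a plasmid 1 to 5 and 1, 2, 2, 7 and 3 counts in GFP control 1 to 5. With 1 to 13 counts per library its level was between 0.0283 and 0.703 CPM, where a floor of 3 counts corresponds to 0.0848 to 0.192 CPM (counting error only). It was too low to be tested between the labels, and no fold between labels is given.

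MYC (ENSSSCG00000005965.5, chromosome 4, 12455119 to 12461078), which drives ribosome production and growth, had 458, 444, 338, 227 and 293 CPM in Cell-cell interaction 1 to 5, 396, 352, 265, 455 and 368 CPM in St8i6a plasmid 1 to 5 and 459.7, 426, 314, 315 and 471 CPM in GFP control 1 to 5. The labels overlapped, with Cell-cell interaction 4 and 5 below every GFP control library. The lowest values of the series were 215 CPM in Kec plus all cells and 215 CPM in Wild type 2. The log2 fold change of Cell-cell interaction over GFP control was -0.14 ± 0.21 (SE, n = 5 and 5, edgeR adjusted p = 0.611), with an interval of 2 SE to either side from -0.57 to 0.28.

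**Figure D2:**
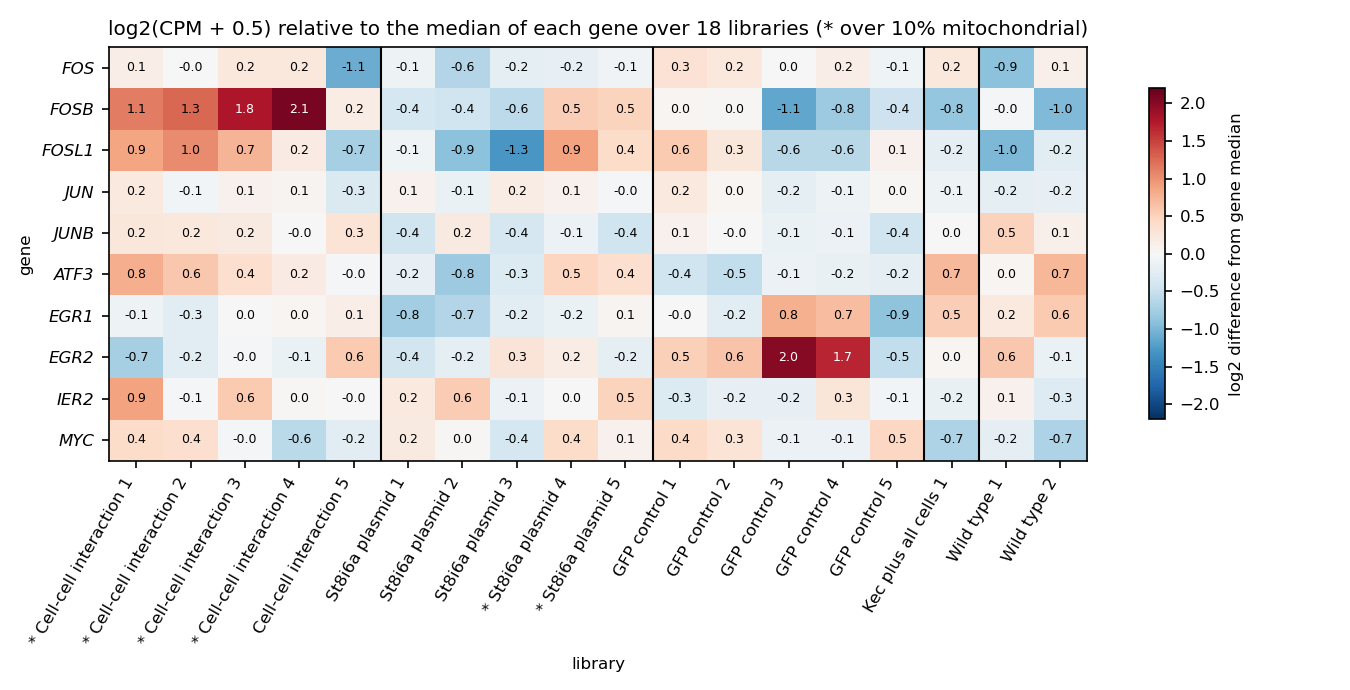
log2(CPM + 0.5) of each gene (rows) in each library (columns, grouped by label), as the difference from that gene's median over the 18 libraries. FOSB is highest in Cell-cell interaction 1 to 4, EGR2 and EGR1 are highest in GFP control 3 and 4, and the JUN row shows the palest colours.

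Against St8i6a plasmid, the other label with a plasmid, no member of Cell-cell interaction passed. In edgeR's quasi-likelihood test 0 of 9 members passed, where 0.159% of 13849 genes passed, 2 members had an unadjusted p under 0.05, DESeq2 called 2 and limma-voom 0. Those 2 were FOSB, with 16.5 ± 7.60 CPM in Cell-cell interaction and 5.89 ± 2.46 CPM in St8i6a plasmid (SD, n = 5 and 5, with a change of 1.52 ± 0.38, SE; edgeR adjusted p = 0.0615), and JUNB, with 81.4 ± 6.50 and 61.2 ± 12.4 CPM (0.44 ± 0.13; edgeR adjusted p = 0.0754). Leaving out 1 library moved these calls. Without St8i6a plasmid 5 FOSB passed (edgeR adjusted p = 0.0278), and without Cell-cell interaction 5 FOSB (edgeR adjusted p = 0.0268) and FOS (edgeR adjusted p = 0.0434) passed. The count over all genes went to 2806 and 3308 in these fits, against 22 with every library.

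St8i6a plasmid against GFP control sets the sialyltransferase plasmid against the control plasmid by label, and no member passed between these labels. The test passed 0 of 9 members and 0% of 13840 genes, with 2 members at an unadjusted p under 0.05, and DESeq2 and limma-voom called 0 members. FOS averaged 22.6 ± 3.31 CPM in St8i6a plasmid and 29.2 ± 3.41 CPM in GFP control (SD, n = 5 and 5), and the difference on the log2 scale was -0.35 ± 0.14 (SE; edgeR adjusted p = 0.502). EGR2 averaged 4.46 ± 1.01 and 10.7 ± 7.08 CPM, a log2 fold change of -1.23 ± 0.42 (SE; edgeR adjusted p = 0.502). EGR1 averaged 72.1 ± 17.1 and 103 ± 45.8 CPM, a log2 fold change of -0.49 ± 0.29 (SE; edgeR adjusted p = 0.518). For JUN the interval of 2 SE to either side ran from -0.17 to 0.28 and for MYC from -0.47 to 0.27, on the log2 scale.

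GFP control against Wild type sets transfected against untransfected cells by label, with 2 libraries of Wild type that differed from each other. In the authors' own comparisons, described below, Wild type 1 lies on a side with Cell-cell interaction 3 to 5. Wild type 1 and Cell-cell interaction 5 had 80.1 and 76.2 CPM of ATF3 and 299 and 293 CPM of MYC. Wild type 2 and Kec plus all cells had 130 and 128 CPM of ATF3 and 215 and 215 CPM of MYC. Whether the label of Wild type 1 is right was not tested. No member passed in edgeR's quasi-likelihood test, where 3.16% of 14496 genes passed, 3 members had an unadjusted p under 0.05, DESeq2 called 1 (ATF3) and limma-voom 0. ATF3 averaged 64.0 ± 7.96 CPM in GFP control and 105 ± 35.5 CPM in Wild type (SD, n = 5 and 2), which differed by -0.72 ± 0.20 on the log2 scale (SE; edgeR adjusted p = 0.113), and without Wild type 1 it passed at -1.04 (edgeR adjusted p = 0.0405), in a fit where Wild type 2 is alone and assumed to vary like GFP control. MYC averaged 397 ± 77.4 and 257 ± 59.2 CPM (0.64 ± 0.25; edgeR adjusted p = 0.230), and JUNB 65.7 ± 8.80 and 88.9 ± 17.2 CPM (-0.43 ± 0.17; edgeR adjusted p = 0.225). These 3 members did not overlap between labels, a state shared by 25.6% of all genes in this comparison. Wild type 1 and 2 were far apart in FOS, at 14.0 and 28.9 CPM, and the other way round in FOSB, at 5.73 and 2.76 CPM.

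**Figure D3:**
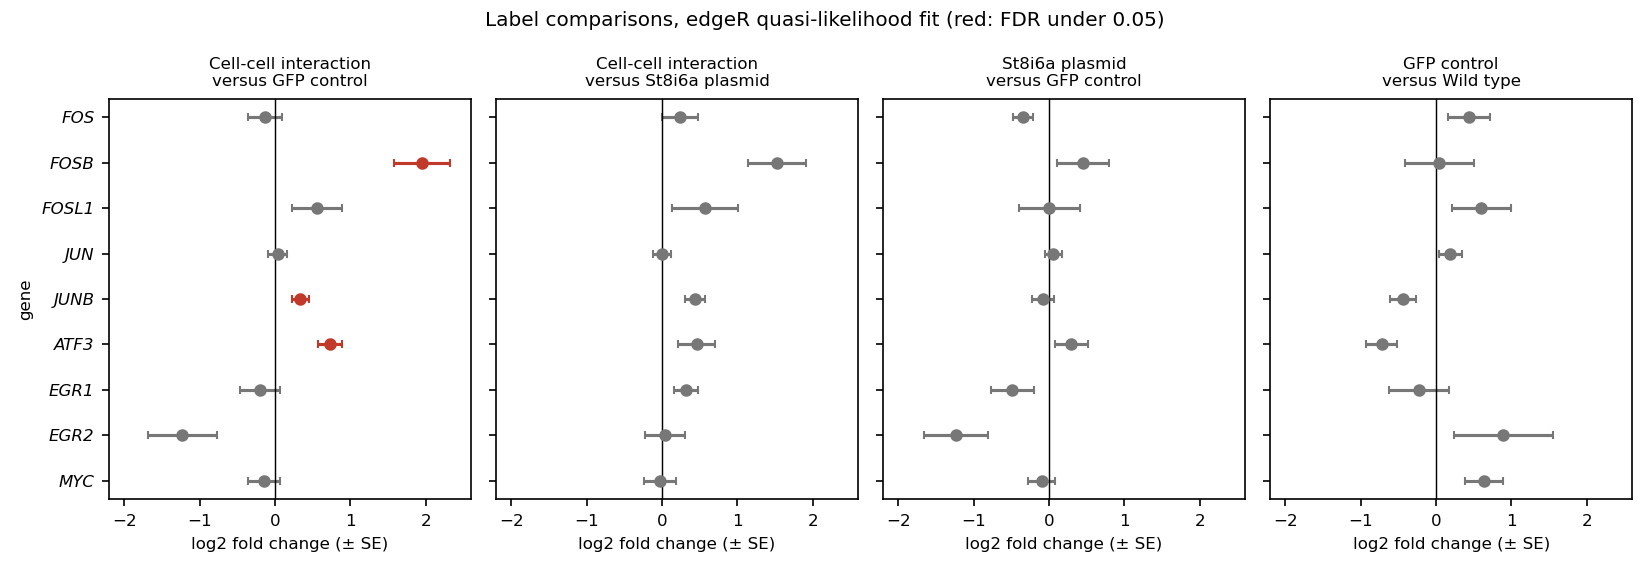
log2 fold change (horizontal axis, whiskers SE) of 9 genes in the 4 label comparisons, positive where the label named first is higher. Red marks an adjusted p under 0.05 by edgeR, reached by FOSB, JUNB and ATF3 in Cell-cell interaction versus GFP control and by 0 genes in the other 3 panels.

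The authors' deposited table also holds comparisons of the authors' own, which name Cell cell interaction separately for GFP and St8i6a cells. A least-squares fit of each deposited log2 fold change on the log2 CPM of all libraries, over 10406 genes with a mean of at least 5 CPM (R2 of 0.957 to 0.992), put 4 libraries on each side with a weight beyond 0.15. On the St8i6a plasmid side were the libraries labelled GFP control 5 and St8i6a plasmid 1 to 3, and on the GFP control side GFP control 1 to 4. On the side of interaction of GFP cells were St8i6a plasmid 4 and 5 and Cell-cell interaction 1 and 2, and on that of St8i6a cells Cell-cell interaction 3 to 5 and Wild type 1. On the side of interaction of GFP cells ST8SIA6 had 0, 61, 0 and 439 counts. On that of St8i6a cells it had 0, 24, 2 and 1. These sides do not match the sample labels, and which of them is right was not tested. The comparisons share libraries on these sides, so their results are not independent of each other.

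In the authors' deposited table, EGR1 and EGR2 were lower on the St8i6a plasmid side than on the GFP control side. EGR1 was 1.99-fold lower there (deposited log2 fold change -0.99, deposited FDR 0.00171), with 48.8 to 76.0 CPM in the 4 libraries of the St8i6a plasmid side and 76.3 to 156 CPM in the 4 of the GFP control side. EGR2 was 3.12-fold lower (deposited log2 fold change -1.64, deposited FDR 0.00260), with 3.07 to 5.78 CPM against 6.92 to 20.1 CPM. Within the GFP control side, libraries 3 and 4 had 156 and 145 CPM of EGR1, and libraries 1 and 2 had 89.8 and 76.3 CPM. For EGR2 these were 20.1 and 16.1 CPM, and 6.92 and 7.52 CPM. FOS also did not overlap, at 16.9 to 24.8 CPM against 26.8 to 33.3 CPM, without a call (deposited FDR 0.439). The authors' deposited table thus calls 2 of 10 members in this comparison and 1.37% of all genes, 0.951% in the same direction.

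For contact, the authors' deposited table gives fold changes of plasmid cells over interaction cells, so a negative value means higher in the interaction. FOSB was higher by 3.64-fold in interaction of St8i6a cells (deposited log2 fold change -1.86, deposited FDR 0.000469), with 5.73 to 26.4 CPM against 3.78 to 4.34 CPM. It was higher by 2.58-fold in interaction of GFP cells (deposited log2 fold change -1.37, deposited FDR 0.00563), with 8.37 to 14.8 CPM against 2.39 to 6.02 CPM. ATF3 was called upward in both, by 1.41-fold for St8i6a cells (deposited FDR 0.0215), at 76.2 to 100.9 against 44.5 to 69.1 CPM, and by 1.84-fold for GFP cells (deposited FDR 3.97e-06), at 100.9 to 136 against 53.6 to 71.3 CPM. On the side of interaction of St8i6a cells, Cell-cell interaction 3 and 4, over 10% mitochondrial, had 21.3 and 26.4 CPM of FOSB. Cell-cell interaction 5 and Wild type 1, under it, had 6.64 and 5.73 CPM, and all 4 were above the St8i6a plasmid side. GFP control 1 and 2, also under it and on the GFP control side, had 6.02 and 5.97 CPM, above Wild type 1. The 4 libraries of interaction of GFP cells were all over 10% mitochondrial and the 4 of the GFP control side all under it, so the mitochondrial share and the interaction cannot be told apart there.

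EGR1 was called in opposite directions in the authors' deposited table for the 2 kinds of cell. EGR1 was higher by 1.65-fold in interaction of St8i6a cells (deposited FDR 0.00583), at 90.4 to 105 CPM against 48.8 to 76.0 CPM. It was lower by 1.40-fold in interaction of GFP cells (deposited FDR 0.0453), at 75.5 to 93.8 CPM against 76.3 to 156 CPM. There GFP control 3 and 4 had 156 and 145 CPM, while GFP control 1 and 2, at 89.8 and 76.3 CPM, lay within the range of the interaction. EGR2 was lower by 3.23-fold in interaction of GFP cells (deposited FDR 3.56e-05), at 2.59 to 5.26 CPM against 6.92 to 20.1 CPM, and was not called for St8i6a cells (deposited FDR 0.277), at 4.16 to 7.28 CPM against 3.07 to 5.78 CPM. The difference between the cells in these responses was not tested. IER2, at 1 to 13 counts per library, was not called in the authors' deposited table, where its lowest FDR was 0.0504, in interaction of GFP cells (deposited log2 fold change -1.65, higher in the interaction). JUNB was called higher in interaction of St8i6a cells (1.41-fold, deposited FDR 0.0366), at 70.6 to 101 CPM against 52.3 to 81.4 CPM, which overlap. It was not called for GFP cells (deposited FDR 0.863). The authors' deposited table so calls 4 of 10 members for St8i6a cells, all higher in the interaction, where it calls 25.2% of all genes and 14.7% in that direction. For GFP cells it calls 4 of 10, 2 higher and 2 lower in the interaction, where it calls 49.5% of all genes, 24.3% higher and 25.3% lower.

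Between the 2 interactions, St8i6a cells against GFP cells, the authors' deposited table calls 0 of 10 members and 4.74% of all genes. MYC was nearest, at 227 to 338 CPM in interaction of St8i6a cells and 368 to 458 CPM in interaction of GFP cells, which do not overlap (1.49-fold, deposited FDR 0.0673). FOSL1 had 22.5 to 75.4 CPM and 59.8 to 92.2 CPM (deposited FDR 0.188).

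**Figure D4:**
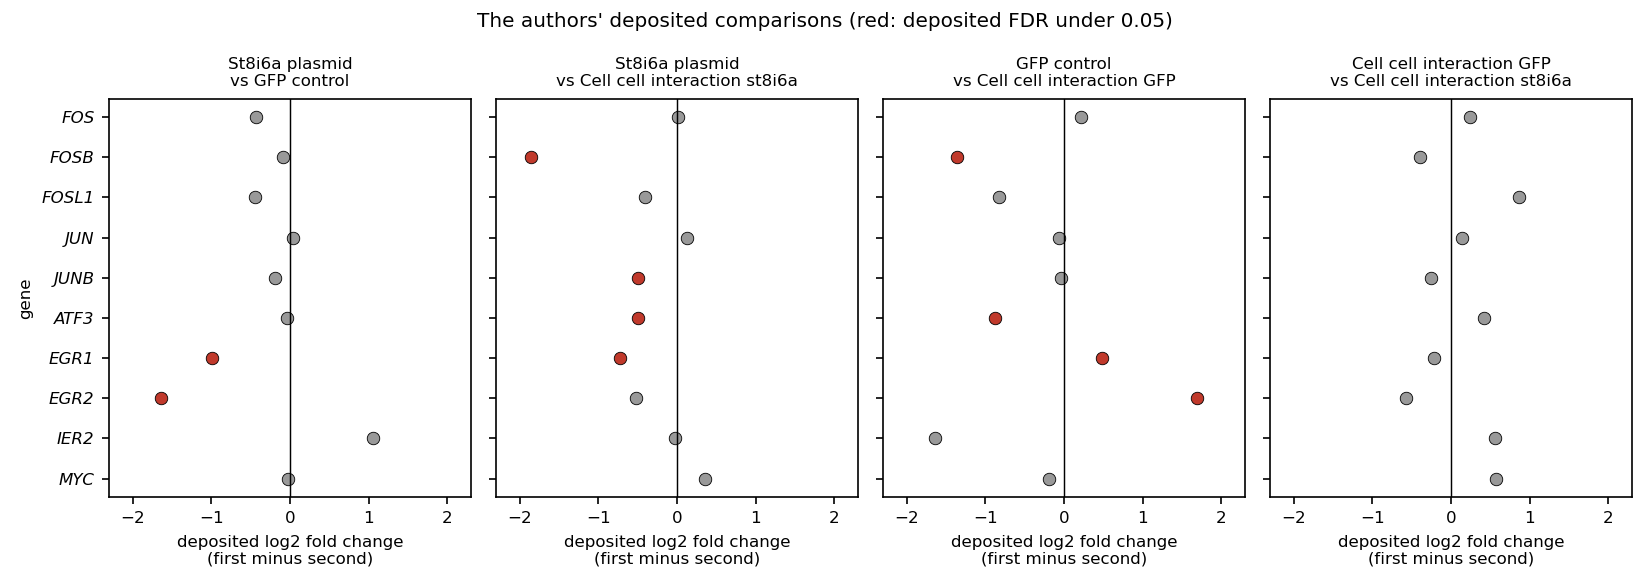
Deposited log2 fold changes of the 10 genes in the authors' 4 comparisons (horizontal axes, the side named first minus the side named second). Red marks a deposited FDR under 0.05; FOSB and ATF3 lie left of 0 in both plasmid against interaction panels, while EGR1 and EGR2 change sign between them.

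Genes around these factors were counted by list in Cell-cell interaction against GFP control, beside the 20.8% of all genes that rose and 18.7% that fell there. Of 29 other early response genes, 7 rose and 1 fell. The nuclear receptor NR4A3 rose (5.31 ± 1.32 CPM in Cell-cell interaction and 1.61 ± 0.765 CPM in GFP control, SD, n = 5 each; log2 fold change 1.74 ± 0.33, SE; edgeR adjusted p = 0.00274), as did the kinase PLK3 (32.5 ± 5.94 and 14.5 ± 1.88 CPM) and the factor KLF4 (58.0 ± 21.3 and 22.3 ± 5.89 CPM). SGK1, a kinase induced by serum and glucocorticoid, fell to 52.5 ± 8.16 CPM in Cell-cell interaction, against 219 ± 73.2 CPM in GFP control (log2 fold change -2.03 ± 0.23; edgeR adjusted p = 0.000263).

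Other AP-1 and related bZIP genes split, 3 higher and 2 lower of 13 tested. DDIT3, the stress factor CHOP, rose to 4.09 ± 1.08 CPM in Cell-cell interaction, against 0.663 ± 0.103 CPM in GFP control (SD, n = 5 each), and MAFG, a small MAF protein, to 29.4 ± 3.23 against 18.9 ± 1.15 CPM. MAF fell to 2.99 ± 1.45 against 9.54 ± 3.86 CPM and CEBPD to 37.9 ± 14.6 against 71.3 ± 5.90 CPM.

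Upstream, 5 of 30 kinase and SRF module genes rose and 8 fell. MAP2K6, a kinase that activates p38, fell to 1.55 ± 0.435 CPM in Cell-cell interaction, against 7.28 ± 0.467 CPM in GFP control (SD, n = 5 each; log2 fold change -2.21 ± 0.22, SE; edgeR adjusted p = 0.000122). MAP2K1, which activates ERK, fell to 52.9 ± 5.72 against 86.3 ± 11.1 CPM, whereas MAP2K7, which activates JNK, rose to 82.8 ± 13.2 against 54.4 ± 2.19 CPM and MRTFA, an SRF coactivator, to 280.5 ± 34.6 against 183 ± 20.7 CPM. Of 4 tested EGFR ligands, BTC fell (14.5 ± 5.85 and 26.1 ± 3.99 CPM) and AREG, EREG and HBEGF did not pass. Of 17 inhibitors of MAP kinase signalling and EGR corepressors 2 rose and 2 fell. DUSP6, a phosphatase of ERK, fell to 46.7 ± 14.1 against 122 ± 57.0 CPM (edgeR adjusted p = 0.00722), and DUSP8 rose to 28.1 ± 7.09 against 14.5 ± 1.11 CPM. ERK activity itself was not measured.

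Downstream and decay genes were counted in the same way. Of 13 tested AP-1 target genes 2 rose and 1 fell, CXCL8, a neutrophil chemokine, to 262 ± 159 CPM in Cell-cell interaction, against 21.8 ± 20.7 CPM in GFP control, HMOX1, heme oxygenase, to 61.9 ± 14.0 against 22.4 ± 15.7 CPM and TIMP1 down to 212 ± 105 against 478 ± 152 CPM (SD, n = 5 each). Of 18 MYC target genes 1 rose, the ribosome assembly factor BOP1 (129 ± 32.8 and 68.9 ± 18.7 CPM), 1 fell, LDHA (367 ± 68.1 and 605 ± 187 CPM), and 16 did not pass. The MYC dimer network had 2 higher and 2 lower of 10, among them MYCN, lower at 1.03 ± 0.639 against 5.24 ± 3.93 CPM. Of 13 factors that bind or degrade AU-rich messages such as those of FOS and MYC, 4 fell and 1 rose, CNOT8, a deadenylase, to 16.4 ± 1.11 against 26.4 ± 1.76 CPM, ZFP36L2 to 155 ± 17.1 against 216 ± 21.4 CPM and ZFP36L1 up to 624 ± 109 against 430.5 ± 42.9 CPM.

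**Figure D5:**
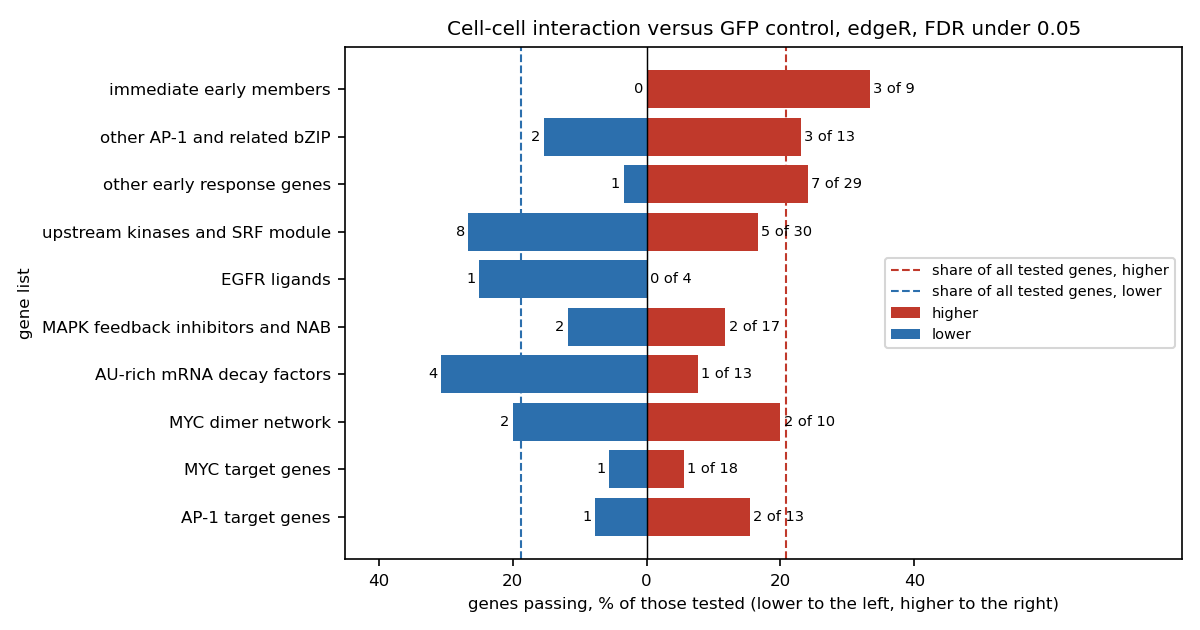
Share of tested genes that passed in Cell-cell interaction versus GFP control, higher to the right and lower to the left, with the number of genes beside each bar. Bars are for the 9 tested of the 10 genes described here (IER2 was not tested) and for 9 lists around them. Dashed lines mark the shares over all tested genes, 20.8% higher and 18.7% lower.

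In St8i6a plasmid against GFP control, these lists held 0 passing genes by edgeR's quasi-likelihood test, in which 0 of all 13840 genes passed, 1367 had an unadjusted p under 0.05, DESeq2 called 11 and limma-voom 0. NR4A1 had 12.8 ± 1.63 CPM in St8i6a plasmid and 35.3 ± 32.1 CPM in GFP control (SD, n = 5 each; edgeR adjusted p = 0.502), and GADD45A, a DNA damage response gene, 30.05 ± 3.85 and 40.2 ± 7.28 CPM. On the authors' own sides the authors' deposited table calls 7 of the 143 list genes (4.90%) lower on the St8i6a plasmid side, beside 0.951% of all genes. They are GADD45A (deposited log2 fold change -0.64, deposited FDR 0.00148), FOSL2, an AP-1 subunit (-0.80, deposited FDR 0.00557), MAFF, a small MAF protein (-1.38, deposited FDR 0.0398), CCN1, a matrix protein (-0.95, deposited FDR 0.0162), BTG1, an antiproliferative factor (-0.53, deposited FDR 0.0142), DUSP10, a phosphatase of p38 and JNK (-0.78, deposited FDR 0.00959), and the cytokine IL11 (-2.34, deposited FDR 0.00125). The authors' deposited table calls HMOX1 higher on that side (1.19, deposited FDR 0.0499). For contact, the list genes called higher in the interaction were 17.5% for St8i6a cells, beside 14.7% of all genes. For GFP cells they were 25.2% beside 24.3%, and those called lower were 23.1% beside 25.3%. Between the 2 interactions, 4 of the 143 list genes (2.80%) were called higher for GFP cells and 7 (4.90%) higher for St8i6a cells. Of all genes 4.74% were called there, a share that pools both directions. It is therefore not a background for either of these list shares alone. An excess over all genes was not tested.

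In pattern over the 18 libraries, the genes most like each member were found among 10705 named genes with a mean of at least 1 CPM, by Pearson's coefficient of log2(CPM + 0.5), a likeness that depth and the mitochondrial share also enter. Those most like FOSB were PPP1R37 (0.95), ASPSCR1 (0.94) and RABEP2 (0.94), and those most like ATF3 were TBC1D8 (0.97), ACOXL (0.95) and MOB3C (0.93). EGR1 was most like PPP2R5B (0.95), PTPN14 (0.94) and CAND2 (0.91), and EGR2 most like KCND1 (0.90), ANGEL2 (0.88) and FHIP2A (0.87). FOSL1 was most like AEN (0.96), XPO6 (0.94) and SERTAD3 (0.92), MYC most like SAMHD1 (0.93), KYNU (0.92) and LPIN2 (0.92), and FOS most like TRAF4 (0.91) and MAP2K5 (0.85). JUN was most like CRAT (0.84), GYPC (0.83) and RPL35 (0.82), and JUNB most like ZSWIM4 (0.88), TANC2 (0.85) and KLHL42 (0.84). Among the members themselves the most alike were EGR1 with EGR2 (0.65), FOSB with FOSL1 (0.65) and FOS with JUN (0.58), and the least alike were EGR1 with MYC (-0.58).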

How the data were processed

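Total RNA was sequenced from 18 libraries, grouped by the treatment label alone; replicate numbers follow sample order and pair nothing. The submitters' processing notes name build susScr11, quality checks with FastQC 0.11.5, the aligner STAR 2.7.10a, the Subread 2.0.3 package with featureCounts, and edgeR 3.40.2. Annotation, strand setting and filter were not found in those notes. The authors deposited 2 tables with identical whole-number counts per gene, log2 CPM and log2 fold changes, a signed fold change as a score, p-values with FDR, and gene length as another column, per the file headers. Lengths here give CPM per kilobase.

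Only libraries of the labels compared entered a fit, which was filtered by filterByExpr, scaled by TMM and tested two-sided with edgeR 4.0.16 (robust quasi-likelihood, R 4.3.3), with Benjamini-Hochberg adjustment over all tested genes at 0.05. SE came from the F statistic. CPM are TMM-scaled over all libraries. As alternatives the fit was repeated with RLE factors, without the filter, for genes of at least 5 CPM, by DESeq2 1.42.0, by limma-voom (limma 3.58.1), with all groups, without mitochondrial genes, without libraries over 10% mitochondrial, without each library, and pseudocounts of 0.1 and 1. The fit was tested on simulated data. Named genes were drawn from all members, from each list the lowest p-values (up to 4 for Cell-cell interaction and 2 for St8i6a plasmid, against GFP control) and from the 3 genes most like each member, of which 1 for FOS and those for IER2 are not reported here. NR4A1 over all libraries, and the list genes quoted from deposited comparisons, were added after their values were seen. The members and lists were chosen with earlier results of these data known. Symbols came from the deposited tables for 11927 genes and 65 more from a table of gene names.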

Additional observations from a re-analysis of the deposited data

Results flagged for a closer look

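FOS stood apart in 1 library of each of 2 labels. In Cell-cell interaction, library 5 had 12.2 CPM, far below the other 4 of its label, at 26.3 to 31.3 CPM. In St8i6a plasmid, library 2 had 16.9 CPM, below the other 4 at 23.2 to 25.1 CPM. Cell-cell interaction 5 was also the library of its label under 10% mitochondrial, and its fibroblast and mural markers summed to 37703 CPM, against 6749 to 10790.4 CPM in the other 4. Groups of 5 libraries were examined for 10 genes under 3 labels, 30 in all, of which 2 stood out, and chance alone would mark about 1 in 20.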

How the results depend on the processing

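No paired analysis was possible because the labels give no replicate numbers that tie libraries across groups. In Cell-cell interaction against GFP control, FOSB and ATF3 passed under every alternative except the one without the 6 libraries over 10% mitochondrial (FDR 1.98e-06 to 0.649 and 0.000297 to 0.654 over the alternatives). There 1 Cell-cell interaction library remained, assumed to vary like GFP control, with 140 genes and 0 members called, FOS at -1.30, FOSL1 at -0.82 and JUN at -0.37 on the log2 scale. JUNB did not pass in 10 of 18 alternatives (FDR 0.00847 to 0.439), and EGR2 passed in 7. Leaving out 1 library gave 4099 to 7130 genes and 2 to 5 members, with FOS at -0.23 to 0.0464 and JUN at -0.0233 to 0.10. Without Cell-cell interaction 5 the members were FOSB, JUNB, ATF3, FOSL1 and EGR2.

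In Cell-cell interaction against St8i6a plasmid, the 22 genes were 139 with a mean of at least 5 CPM, 2705 by DESeq2, 337 by limma-voom, 1320 with all groups in 1 fit, 151 without mitochondrially encoded genes and 2 without the 6 libraries. DESeq2 called 2 members, and the fit of all groups 1 (FOSB). Leaving out 1 library gave 0 to 3308 genes and 0 to 2 members. JUN, at -0.00, was 0.00516 with RLE scaling, 0.0476 at 5 CPM, 0.00479 by DESeq2 and 0.0160 without mitochondrially encoded genes, and -0.0657 to 0.0726 with 1 library left out, where EGR2 was -0.21 to 0.17 and MYC -0.15 to 0.0766. MYC was 0.0185 at 5 CPM, and without the 6 libraries FOS was -0.91 and FOSL1 -0.14.

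In St8i6a plasmid against GFP control DESeq2 called 11 genes, and leaving out 1 library gave 0 to 1 genes and 0 members. FOSL1 was -0.00879 with no filter, -0.16 by limma-voom, -0.00961 with all groups in 1 fit and -0.33 to 0.21 with 1 library left out; without the libraries over 10% mitochondrial FOSL1 was -0.70, FOSB -0.0746 and ATF3 -0.0949. In GFP control against Wild type, where leaving out a Wild type library leaves 1, DESeq2 called 1410 genes and 1 member, and leaving out 1 library gave 65 to 407 genes and 0 to 1 members, with FOSB at -0.38 to 0.65. The causes of these shifts were not tested. IER2, at 1 to 13 counts per library, did not pass the filter on low counts.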
